A study of Mus musculus with 6 samples.

Results

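The genes described here are 37 interferon-stimulated genes of the mouse host, among 18018 mouse genes with at least 10 counts in total over 6 libraries whose tissue the labels give as liver. They were chosen by name, as genes known to be switched on by interferons, though with earlier results of these data known. The rule used no measured value beyond the minimum of 10 counts in total. Of them, 29 are antiviral and regulatory genes that type I interferon induces, and 8 are GTPases best known as targets of interferon-gamma. Every one of the 37 genes listed reached that minimum, so it removed none. The lowest totals over the 6 libraries were those of Gbp5 (109 counts) and Mx1 (124 counts), 28 genes had at least 10 counts in each library, and none was at 0 in any. The host was the male athymic BALB/c (nu/nu) mouse, which lacks a thymus and therefore most mature T cells, given as 6 weeks old in the labels. All animals carried cells of the human hepatocellular carcinoma (HCC) line QGY-7703 in the liver. At 1 week after implantation they received adeno-associated virus 8 (AAV8) by tail vein, and the virus carried either a control siRNA (siControl, 3 libraries) or an siRNA against mouse Aatf (siAATF, 3 libraries). In both groups the TBG promoter, which is active in hepatocytes and not in most other liver cells, drove the siRNA. The labels do not say whether the libraries came from separate animals, so the p-values measure only the spread between these samples.

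Interferons are cytokines that cells release when they sense foreign nucleic acid, and that neighbouring cells read through surface receptors. Type I interferons (alpha and beta) signal through IFNAR, JAK1 and TYK2 to a complex that holds STAT2 and IRF9 and binds the interferon-stimulated response element (ISRE) in the promoters of antiviral genes. Interferon-gamma signals through its own receptor to promoters with a gamma-activated site (GAS), and is known above all for inducing the large GTPases that attack intracellular vacuoles. Liver macrophages, endothelial cells, fibroblasts and hepatocytes can all respond to both kinds.

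The libraries differed widely in how much mouse RNA they held. Mouse counts ranged from 213022 to 913584 in siControl, 0.778% to 1.93% of all gene counts, and from 11835898 to 42563694 in siAATF, 97.9% to 99.0% of them. Levels below are TMM-normalized mouse counts in CPM (counts scaled to a common library size) unless another scale is named, and 3 counts, the limit that a count of 0 allows, were worth between 1.67 and 7.24 CPM in siControl and between 0.103 and 0.604 CPM in siAATF. This limit covers counting error alone, because PCR copies of a molecule are counted as if each were its own. The siRNA target itself was not lower in the libraries labelled siAATF: Aatf read 9.62, 2.41 and 12.8 CPM in the siControl libraries, in order of replicate, against 13.2, 22 and 18.8 CPM in siAATF (log2 fold change 0.93 ± 0.47 (SE), adjusted p = 0.152, edgeR's quasi-likelihood test, Benjamini-Hochberg adjusted over all genes tested, as for every adjusted p below). The comparison is therefore between libraries so labelled, and the group, the depth and the share of mouse RNA cannot be told apart. Whether tumor tissue or the liver around it was taken for each library is not given in the sources used here, so every value below compares mouse RNA from samples that were nearly all human with mouse RNA from samples that were nearly all mouse.

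The host's interferon-stimulated genes took a smaller share of mouse RNA in the libraries labelled siAATF, and did so unevenly. Of the 37, 25 were lower at an adjusted p under 0.05 and 0 were higher, where 14.4% of all mouse genes tested were lower and 17.6% higher. This holds relative to other mouse RNA: scaled to human and mouse counts together, 0 were lower and 22 higher, as described further on. At an unadjusted p under 0.05, 25 were lower and 1, Stat2, was higher. Their median log2 fold change was -2.27, beside 0.50 for all genes tested, and 36 of the 37 lay below that median of all genes. Of the 25, 14 fell at least 10-fold, a share that was not counted over all genes. By a rule of unadjusted p under 0.05 and |log2 fold change| of at least 2, 23 of the 37 were lower and 0 higher. The same rule gave 13.1% of all genes lower and 13.6% higher. In 26 genes every siAATF library lay below every siControl library (18.1% of all genes), and in 1 gene, Stat2, every one lay above (34.5%). In bulk RNA, fewer cells of a kind and less RNA per cell cannot be told apart.

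**Figure D1:**
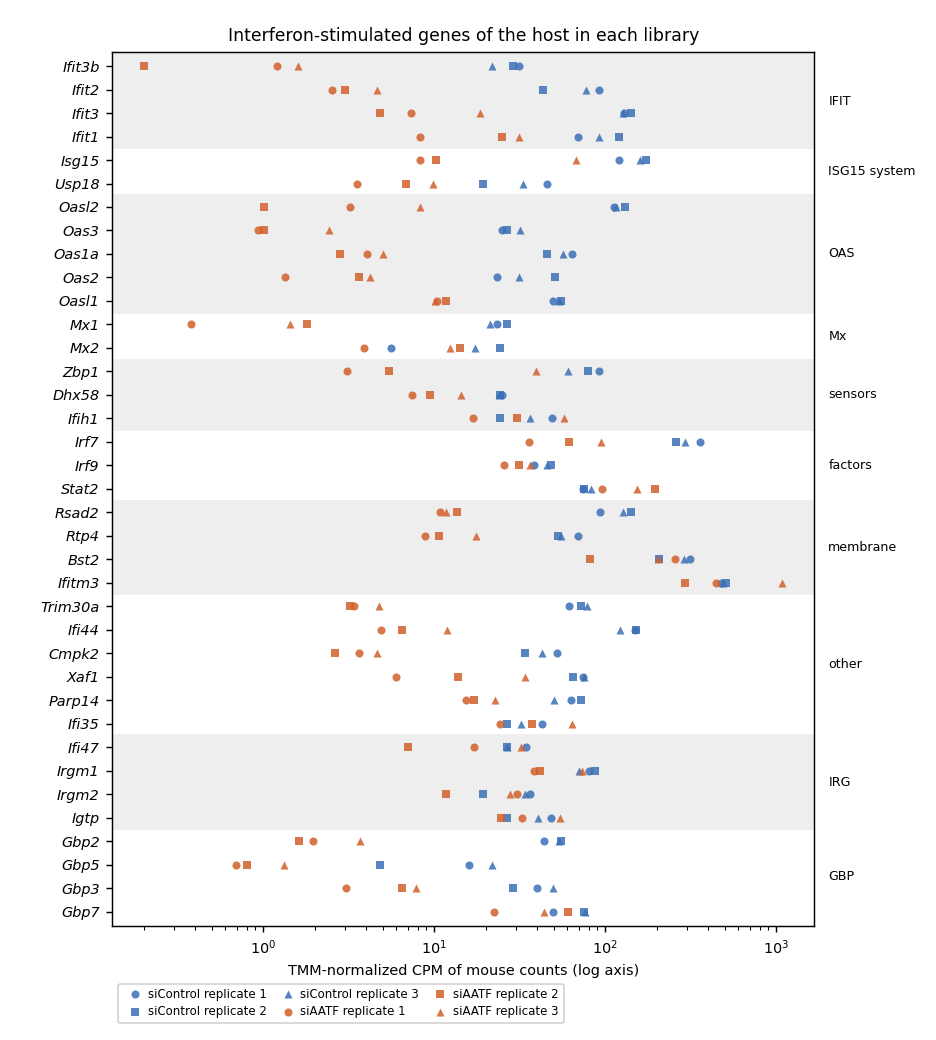
TMM-normalized CPM of mouse counts (x axis, log scale) of each of the 37 genes (y axis, grouped by role) in every library. Blue symbols are siControl and orange ones siAATF, with a symbol for each replicate. Blue and orange are apart for the IFIT and OAS genes and mixed for the IRG genes, and the orange triangle of siAATF replicate 3 is the highest orange symbol for 29 of the 37 genes.

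How many genes of each class were lower depended on the scaling. With TMM, where 14.4% of all genes were lower, 22 of the 29 antiviral genes were (median log2 fold change -2.30) and 3 of the 8 GTPases (median -0.65). By mouse library size alone, where 40.3% of all genes were lower, 27 of the 29 and all 8 GTPases were lower, and with human and mouse counts together, where 87.2% of all genes were higher, 17 and 5 were higher and 0 lower. Relative to all genes tested the TMM medians were -2.81 and -1.15. The 3 GTPases that were lower with TMM were all guanylate-binding proteins (GBPs) and none of the 4 immunity-related GTPases (IRGs) was called with it. No test was made of the difference between the classes.

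The promoters show what the genes have in common before their values are taken up. Windows of 300 bases, 250 before and 50 after the start, were found by symbol for 29 of the 37 genes in a RefSeq table built on GRCm38.p6, and the bases were placed on GRCm39 by exact match. Usp18, Oas2, Mx1, Mx2, Dhx58, Zbp1, Rtp4 and Parp14 had no window in it. The ISRE core, written here as GAAA and GAAA with any 2 bases between, was sought on both strands and was in 19 of the 29 windows (65.5%), against 3.44% of 32851 windows of all genes, and the GAS core, TTC and GAA with any 3 bases between, was in 9 of 29 (31%), against 8.30%. The 2 cores can overlap each other, and a match describes letters only. The sequences below are the 200 bases before the start, 5′ to 3′ on the gene's strand, with matches to either core in capitals. The start is that of the RefSeq table, which for Irgm2 lies 15359 bases inside the gene as the count table's annotation gives it. Isg15, Ifit1 and Ifit3 are shown as antiviral genes that fell, Gbp2 and Gbp7 as neighbours of 1 cluster of which the first was lower and the other not called with TMM, Igtp and Irgm2 as neighbours that were not called with TMM and whose promoters have stretches alike, and Bst2 as an antiviral gene that was not called.
Isg15 (chr4:156285276-156285475, - strand): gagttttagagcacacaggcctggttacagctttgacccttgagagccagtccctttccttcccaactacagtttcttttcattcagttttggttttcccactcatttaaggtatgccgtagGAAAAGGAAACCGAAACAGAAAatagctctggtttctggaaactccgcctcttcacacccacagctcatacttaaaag
Ifit1 (chr19:34618089-34618288, + strand): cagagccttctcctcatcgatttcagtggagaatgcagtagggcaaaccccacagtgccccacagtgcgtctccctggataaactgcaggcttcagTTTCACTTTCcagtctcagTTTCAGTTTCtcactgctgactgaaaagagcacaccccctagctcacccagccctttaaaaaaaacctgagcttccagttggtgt
Ifit3 (chr19:34560729-34560928, + strand): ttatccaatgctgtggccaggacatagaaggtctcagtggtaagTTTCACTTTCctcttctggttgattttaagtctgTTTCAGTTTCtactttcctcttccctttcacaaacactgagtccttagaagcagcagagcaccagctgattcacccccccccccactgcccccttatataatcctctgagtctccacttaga
Gbp2 (chr3:142326224-142326423, + strand): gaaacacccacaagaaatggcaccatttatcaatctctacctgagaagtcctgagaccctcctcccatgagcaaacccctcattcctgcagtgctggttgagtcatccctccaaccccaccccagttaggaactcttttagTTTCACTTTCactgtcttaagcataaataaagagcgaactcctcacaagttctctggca
Gbp7 (chr3:142235897-142236096, + strand): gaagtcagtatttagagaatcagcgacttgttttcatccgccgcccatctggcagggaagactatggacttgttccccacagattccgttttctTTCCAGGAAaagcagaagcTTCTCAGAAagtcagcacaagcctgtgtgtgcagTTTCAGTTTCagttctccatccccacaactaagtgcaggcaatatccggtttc
Igtp (chr11:58090182-58090381, + strand): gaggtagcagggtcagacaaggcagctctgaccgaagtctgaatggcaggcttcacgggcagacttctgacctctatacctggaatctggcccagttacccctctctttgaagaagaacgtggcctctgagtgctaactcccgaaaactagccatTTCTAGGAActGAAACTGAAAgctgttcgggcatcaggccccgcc
Irgm2 (chr11:58105603-58105802, + strand): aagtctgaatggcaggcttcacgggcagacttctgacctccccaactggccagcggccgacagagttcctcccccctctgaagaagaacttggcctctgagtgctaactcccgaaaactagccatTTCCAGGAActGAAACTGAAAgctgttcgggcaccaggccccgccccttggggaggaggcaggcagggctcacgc
Bst2 (chr8:71990117-71990316, - strand): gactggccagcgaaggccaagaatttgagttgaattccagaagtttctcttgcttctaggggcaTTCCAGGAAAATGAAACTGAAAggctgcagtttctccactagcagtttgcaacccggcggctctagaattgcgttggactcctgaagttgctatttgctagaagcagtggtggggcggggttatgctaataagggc

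Isg15 holds 3 overlapping ISRE cores that begin 78, 72 and 66 bases before the start, and Ifit1 and Ifit3 hold 2 each. Gbp2 has 1 ISRE core and no GAS core, while Gbp7 has 1 ISRE core and 2 GAS cores. In Igtp and Irgm2 a GAS core stands 2 bases before an ISRE core, and in Bst2 the 2 overlap. Among the 18 genes with a window that were lower, 11 held an ISRE core and 3 a GAS core, and among the 11 that were not called, 8 held an ISRE core and 6 a GAS core. The promoters printed were picked with the values known. Among the lower genes Oasl2, Ifit2, Oasl1, Irf7, Cmpk2, Ifi44 and Xaf1 held no ISRE core. Among those not called Ifih1, Irf9, Stat2, Irgm1 and Ifi47 held no GAS core. These shares are a description, and the number of windows is small.

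The IFIT proteins bind foreign RNA and block its translation, and the 4 Ifit genes lie in 1 cluster on chromosome 19 (34528110 to 34627409, GRCm39). All 4 were lower with TMM, as were 14.4% of all genes, whereas with human and mouse counts together, where 87.2% of all genes were higher, 1 (Ifit1) was higher and the other 3 were not called. Together they made up 324 ± 9.49 CPM (SD, n = 3) in siControl and 36.2 ± 18.7 CPM in siAATF, an 8.97-fold difference. Ifit3 stood at 128, 142 and 127 CPM in replicates 1 to 3 of siControl, the order kept below, and at 7.27, 4.84 and 18.6 CPM in siAATF. The groups were far apart, with siAATF replicate 3 the nearest to siControl (log2 fold change -3.67 ± 0.52, adjusted p = 0.000251, and -4.37 without that library). Ifit1 fell less, from 69.0, 121 and 92.5 CPM to 8.27, 25 and 31.4 CPM (-2.12 ± 0.50, adjusted p = 0.00588). The siAATF libraries again lay below every siControl library. Ifit3b (-4.57) and Ifit2 (-4.39) fell most of the 4. Of the windows of 150 bases in the Ifit3 transcript, 15.3% are shared with another gene, Ifit3b above all, and reads from these could not have been told apart.

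Isg15 encodes a ubiquitin-like protein that is joined to other proteins during an antiviral response, and Usp18 the protease that removes it and also damps the receptor. Isg15 stood at 121, 174 and 159 CPM in siControl and at 8.27, 10.3 and 67.1 CPM in siAATF. The siAATF replicates 1 and 2 were near 10 CPM and replicate 3 several times higher, though still below siControl (-2.39 ± 0.70, adjusted p = 0.0199). Without siAATF replicate 3 its log2 fold change was -3.98. It lost its call when siControl replicate 2, siControl replicate 3 or siAATF replicate 2 was left out, and over all 6 such fits its log2 fold change ran from -3.98 to -1.95. A gene on the opposite strand overlaps 31.1% of its exon bases, and whether counting used strand is not given in the sources used here. Usp18 was at 45.7, 19.3 and 32.9 CPM in siControl and 3.55, 6.85 and 9.81 CPM in siAATF (-2.33 ± 0.47, adjusted p = 0.00223), with no overlap. Both genes were thus lower with TMM, as were 14.4% of all genes, and both were higher with human and mouse counts together, as were 87.2%.

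The 2′-5′ oligoadenylate synthetases (OAS) make the messenger that activates RNase L upon sensing double-stranded RNA. The Oasl proteins are relatives, of which OASL1 is known to hold back the translation of IRF7. All 5 were lower with TMM, against 14.4% of all genes, whereas with human and mouse counts together, beside the same 87.2% of all genes, 1 (Oasl1) was higher and the other 4 were not called. Their sum was 291 ± 17.0 CPM in siControl and 23.4 ± 5.78 CPM in siAATF, a 12.4-fold difference. Oasl2 had the largest fall of the 37 genes. It stood at 113, 130 and 115 CPM in siControl and at 3.21, 1.01 and 8.26 CPM in siAATF (-4.78 ± 0.62, adjusted p = 0.000148), and its log2 fold change was -5.62 without siAATF replicate 3. Its neighbour Oasl1, at 49.7, 55.5 and 53.5 CPM in siControl, was at 10.3, 11.7 and 10.1 CPM in siAATF (-2.30 ± 0.34, adjusted p = 0.000299). The values of Oasl1 were close together within each group, and those of Oasl2 spread widely in siAATF. Oas3 (-4.21), Oas1a (-3.78) and Oas2 (-3.49), from a cluster elsewhere on chromosome 5, were also lower. Of the Oas1a transcript's windows, 32.0% are shared with its near copy Oas1g.

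The Mx proteins are dynamin-like GTPases that trap viral particles, and the 2 mouse genes lie side by side on chromosome 16. With TMM, Mx1 was lower and Mx2 was not called. Mx1 stood at 23.3, 26.5 and 21.2 CPM in siControl and at 0.379, 1.81 and 1.44 CPM in siAATF (-4.40 ± 0.59, adjusted p = 0.000176). Mx2 was at 5.61, 24.1 and 17.3 CPM in siControl and 3.86, 14.1 and 12.4 CPM in siAATF, with groups that overlapped (-0.55 ± 0.60, adjusted p = 0.492). After thinning every library to the smallest mouse total, Mx2 was called lower too, but so few siAATF counts of either gene are then left that the fitted fold changes depend on the prior count. In siControl replicate 1 Mx2 rested on few counts and was lower than in 2 of the 3 siAATF libraries.

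Of the 3 nucleic acid sensors 2 were lower with TMM, where 14.4% of all genes were. By human and mouse counts together, where 87.2% of all genes were higher, all 3 were higher. Those lower with TMM were Zbp1, which senses Z-form nucleic acid and can trigger cell death, and Dhx58, the regulator LGP2 of the RIG-I family. Zbp1 stood at 91.4, 79.6 and 60.7 CPM in siControl and at 3.10, 5.44 and 39.6 CPM in siAATF. Like Isg15 it was much higher in siAATF replicate 3 than in the other 2, and the groups did not overlap (-2.25 ± 0.76, adjusted p = 0.0383). Without siAATF replicate 3 its log2 fold change was -4.15, and without siAATF replicate 1 it was -1.73. Dhx58 had the smallest fall that was called (-1.22 ± 0.38, adjusted p = 0.0280). The calls of both were lost when siControl replicate 1, 2 or 3 or siAATF replicate 1 was left out, and that of Zbp1 also without siAATF replicate 2. Ifih1, which encodes the long double-stranded RNA sensor MDA5, stood at 48.9, 24.1 and 36.2 CPM in siControl and at 16.9, 30.4 and 57.7 CPM in siAATF (-0.09 ± 0.47, adjusted p = 0.902). Its groups overlapped.

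Of the 3 transcription factors 1 was lower with TMM, beside 14.4% of all genes. All 3 were higher with human and mouse counts together, as were 87.2% of all genes. Irf7, the factor that amplifies type I interferon production and is itself strongly interferon-induced, was at 356, 261 and 294 CPM in siControl and 36.0, 61.2 and 94.2 CPM in siAATF (-2.25 ± 0.47, adjusted p = 0.00285). Irf9 and Stat2, whose products are parts of the complex that binds the ISRE, were not called with TMM. Irf9 was at 38.5, 48.3 and 45.7 CPM in siControl and 25.7, 31.2 and 36.5 CPM in siAATF, each of these below every siControl value (-0.50 ± 0.34, adjusted p = 0.287), and after thinning it was called lower on few counts. Stat2 was at 73.8, 74.8 and 82.5 CPM in siControl and 96.1, 195 and 153 CPM in siAATF, each above every siControl value (0.94 ± 0.40, adjusted p = 0.0962). Stat2 was the single gene of the 37 above the median of all genes, and without siAATF replicate 1 it was called higher (1.20).

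Of the 4 genes that act at membranes, the 2 most abundant were not called with TMM. The other 2 were lower, beside 14.4% of all genes. Scaled to human and mouse counts together, 3 were higher, beside 87.2% of all genes, and Rsad2 was not called. Ifitm3, which hinders fusion of entering viruses, stood at 474, 507 and 488 CPM in siControl and at 444, 292 and 1087 CPM in siAATF (0.31 ± 0.55, adjusted p = 0.694). The siAATF libraries lay on both sides of the narrow siControl range, and without replicate 3 the log2 fold change was -0.36. An antisense gene overlaps 60.9% of the exon bases of Ifitm3, so the reads of the 2 may be mixed. Bst2, the tether of budding virus, was at 315, 208 and 290 CPM in siControl and 257, 81.8 and 204 CPM in siAATF (-0.58 ± 0.49, adjusted p = 0.375), and siAATF replicate 1 exceeded siControl replicate 2. Rsad2 (viperin, which makes a chain-terminating nucleotide) and Rtp4 (a chaperone of membrane receptors) were lower, at -3.33 ± 0.39 and -2.27 ± 0.38. Rsad2 lies next to Cmpk2, a nucleotide kinase, on chromosome 12 and the pair fell by similar amounts (-3.33 and -3.56).

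Of the 6 other antiviral or regulatory genes 5 were lower with TMM, as were 14.4% of all genes. With human and mouse counts together, where 87.2% of all genes were higher, 3 (Xaf1, Parp14 and Ifi35) were higher and 0 lower. Ifi44, a cytoplasmic protein with antiviral activity, stood at 150, 152 and 123 CPM in siControl and at 4.86, 6.45 and 11.8 CPM in siAATF (-4.19 ± 0.46, adjusted p = 5.96e-05). Xaf1, an antagonist of the caspase inhibitor XIAP, was at 74.6, 65.1 and 74.7 CPM in siControl and 5.96, 13.7 and 33.9 CPM in siAATF (-2.0 ± 0.54, adjusted p = 0.0132), and without siAATF replicate 3 its log2 fold change was -2.84. Over the fits that each left out 1 library, the value of Xaf1 ran from -2.84 to -1.55. In neither gene, Ifi44 or Xaf1, did the groups overlap. Trim30a, a ring-finger regulator of inflammatory signalling (-4.21), Cmpk2 (-3.56) and the ADP-ribosyltransferase Parp14 (-1.73) were also lower. Ifi35, a leucine-zipper protein, was not called (0.28 ± 0.42, adjusted p = 0.625). Genes on the opposite strand overlap 24.5% of its exon bases, so its reads may be mixed with theirs.

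The IRG proteins load onto the vacuoles of intracellular parasites and are held inactive on the cell's own membranes by the IRGM members. None of the 4 was called with TMM, whereas all 4 were lower by mouse library size alone (40.3% of all genes), 1, Irgm1, was lower after thinning, on few counts, and all 4 were higher with human and mouse counts together (87.2% of all genes). Irgm1, a regulatory member, was at 80.2, 86.9 and 70.2 CPM in siControl and 38.4, 41.5 and 73.0 CPM in siAATF (-0.63 ± 0.38, adjusted p = 0.238). Igtp (Irgm3) was at 48.1, 26.5 and 40.7 CPM in siControl and 32.5, 24.6 and 54.7 CPM in siAATF (-0.07 ± 0.40, adjusted p = 0.910). In both genes siAATF replicate 3 lay among or above the siControl values. Ifi47 was at -0.64 ± 0.49 and Irgm2 at -0.39 ± 0.43. Their sum was 177 ± 20.3 CPM in siControl and 130 ± 52.3 CPM in siAATF. Igtp and Irgm2 overlap on the same strand of chromosome 11 (58090382 to 58113608), so part of their reads could not be assigned to 1 of them.

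The GBPs cooperate with the IRGs at vacuoles and bacterial surfaces. The 4 Gbp genes stand within 141 kb on chromosome 3 (142202661 to 142343769), and 3 of the 4 were lower with TMM, where 14.4% of all genes were, whereas with human and mouse counts together, where 87.2% of all genes were higher, 1 (Gbp7) was higher and the other 3 were not called. Gbp2 stood at 44.1, 55.5 and 53.5 CPM in siControl and at 1.97, 1.61 and 3.66 CPM in siAATF (-4.35 ± 0.43, adjusted p = 3.83e-05). Gbp7, from the same cluster, was at 49.7, 74.8 and 75.8 CPM in siControl and 22.3, 60.2 and 43.9 CPM in siAATF, where siAATF replicate 2 exceeded siControl replicate 1 (-0.66 ± 0.42, adjusted p = 0.257). Per kb of gene length Gbp2 was at 20.3 CPM in siControl and 0.958 CPM in siAATF, and Gbp7 at 11.9 and 7.51 CPM, so that their order was inverted. After thinning Gbp7 was also called lower, on few counts. Gbp5 (-3.99), which promotes inflammasome assembly, and Gbp3 (-2.82) were lower as well. The sum of the 4 was 172 ± 26.1 CPM in siControl and 51.3 ± 21.1 CPM in siAATF.

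**Figure D2:**
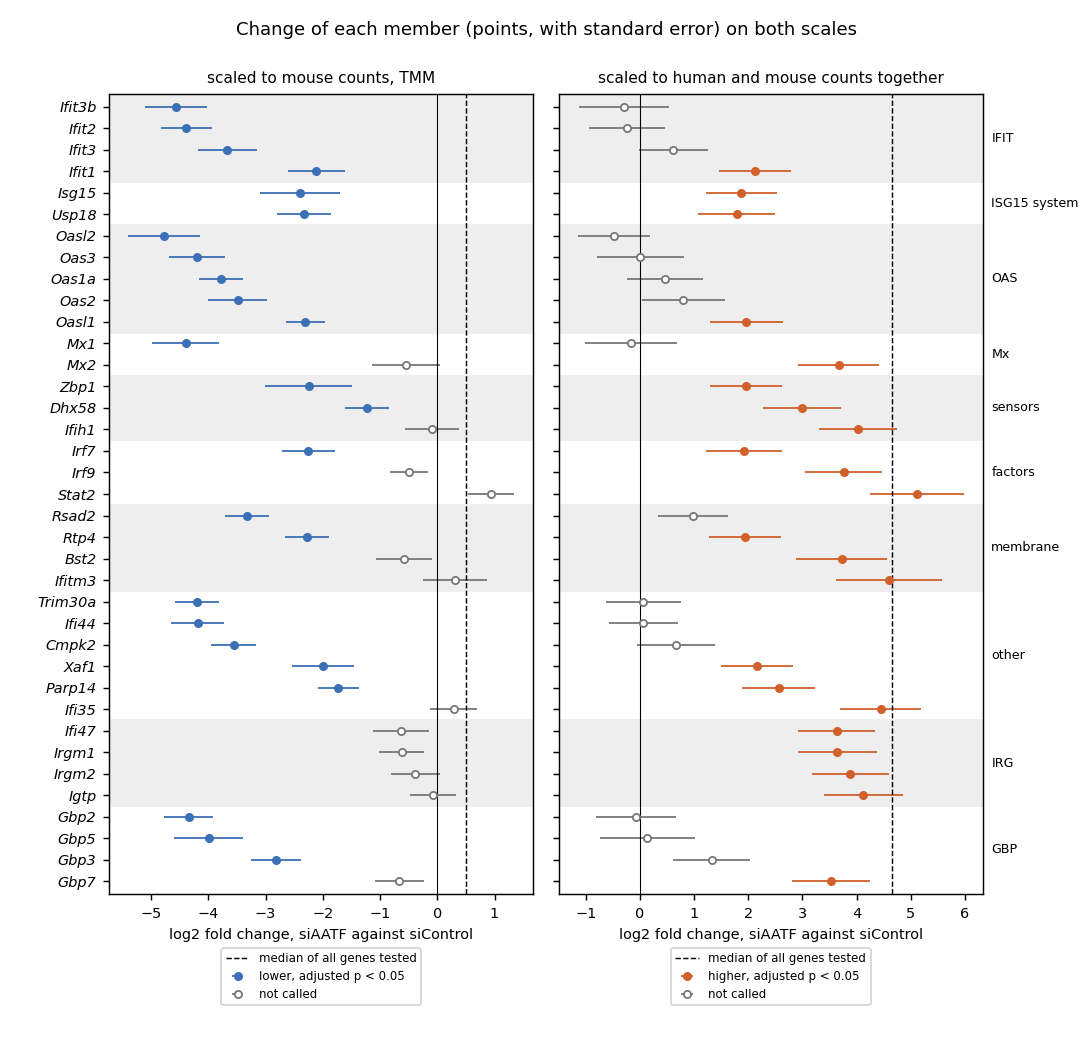
Log2 fold change of each gene, siAATF against siControl (x axis), with its standard error, from counts scaled to mouse counts by TMM (left) and to human and mouse counts together (right). Filled symbols have an adjusted p under 0.05, blue lower and orange higher, and the dashed line is the median of all genes tested (0.50 and 4.66). On the left 25 genes are lower, and on the right 22 genes are higher, while all but Stat2 lie to the left of the dashed line. A change of scale moves all genes by nearly the same amount, so the places relative to that line are not tested anew on the right.

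Direction depended on what the counts were scaled to. As CPM of human and mouse counts together, the 37 genes summed to 108, 46.3 and 103 in siControl and to 787, 431 and 1162 in siAATF, since mouse RNA was most of the RNA in siAATF and little of it in siControl. On this scale 22 of the 37 were higher and 0 lower, against 87.2% and 0.660% of all genes tested, and the groups lay apart in 22, all of them higher, against 83.9% of all genes wholly higher and 0.655% wholly lower. The median of the 37 was 1.94 beside 4.66 for all genes, so that relative to all genes it was -2.72, beside -2.77 with TMM. A change of scale moves all genes by nearly the same amount, so this difference could hardly change and is not a second result. Oasl2 (-0.48), Ifit3b (-0.30), Ifit2 (-0.25), Mx1 (-0.17) and Gbp2 (-0.08) were the 5 genes with a negative value on this scale, and none of them was called. Scaled by mouse library size without TMM, 35 were lower, all but Stat2 and Ifitm3, and 0 higher, where 40.3% of genes were lower and 4.15% higher. Thinned to the smallest mouse total, 28 were lower and 0 higher, where 18.4% of the 9684 genes then tested were lower and 12.9% higher. The falls described above are thus falls relative to other mouse RNA, and none of the 37 genes was called lower on the scale of all counts.

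Ratios of counts between genes of the same library carry no scaling at all. The pairs below were picked after the values were seen and are given without a test. Isg15 had 1.64, 2.32 and 1.93 counts per count of Stat2 in siControl and 0.0861, 0.0528 and 0.439 in siAATF. The ratio of Oasl2 to Oasl1 was 2.27, 2.35 and 2.16 in siControl and 0.310, 0.0862 and 0.819 in siAATF. In both pairs the control values were close together and the siAATF values lower and wider, highest in replicate 3. Gbp2 had 0.887, 0.742 and 0.706 counts per count of Gbp7 in siControl and 0.0881, 0.0268 and 0.0832 in siAATF. Mx2 had 0.241, 0.909 and 0.816 counts per count of Mx1 in siControl and 10.2, 7.78 and 8.62 in siAATF. This ratio of counts was below 1 in each siControl library and far above 1 in each siAATF library. As shares of all counts of the 37 genes, the 8 GTPases took 10.6% to 12% in siControl and 10.7% to 14.6% in siAATF, while Ifitm3 and Bst2 together took 23.4% to 25% and 35.5% to 60.1%.

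**Figure D3:**
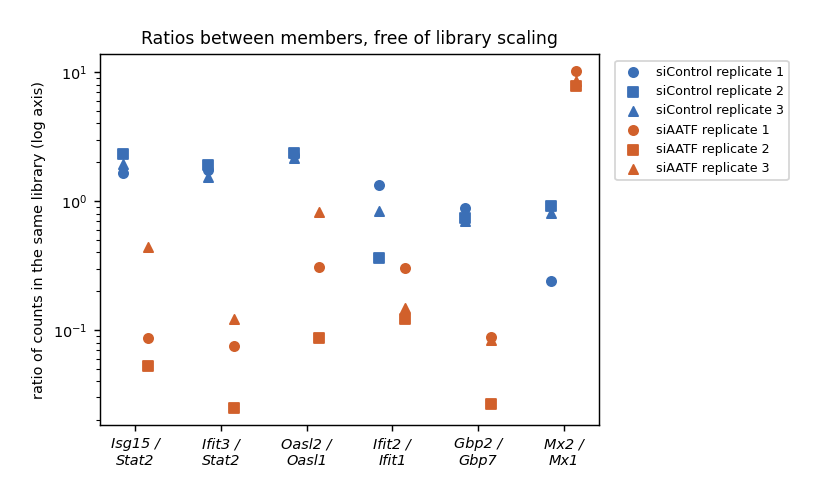
Ratio of the counts of 2 genes within a library (y axis, log scale) for 6 pairs (x axis), with blue siControl and orange siAATF libraries and a symbol for each replicate. The siControl values of Oasl2 to Oasl1 lie between 2.16 and 2.35, the siAATF values between 0.0862 and 0.819, and Mx2 to Mx1 is the pair whose ratio is higher in siAATF.

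The siControl libraries lay close together in the sum of these genes, and the siAATF libraries did not. The 37 genes summed to 3169, 3055 and 3113 CPM in siControl and to 1165, 1051 and 2277 CPM in siAATF. Replicate 3 was the highest siAATF library for 29 of the 37 genes, against 33.2% of all genes, and in it a gene stood at a median of 1.79 times the mean of the other 2, against 0.974 for all genes. Zbp1 (9.26 times), Isg15 (7.24 times) and Oasl2 (3.92 times) differed most. In the same library the 8 neutrophil markers summed to 138 CPM, against 2.79 and 2.42 CPM in siAATF replicates 1 and 2. The plasmacytoid dendritic cell markers also summed higher there, to 287 CPM against 59.2 and 96.7 CPM, of which Ly6d alone made up 237 CPM. The part of these markers in the result was not tested. Without siAATF replicate 3, 25 genes were lower and the median log2 fold change was -2.67.

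Levels between genes were compared per kilobase of gene length. Ifitm3 was first and Bst2 second in both groups, at 722 and 342 CPM per kb in siControl and 896 and 228 CPM per kb in siAATF, where the mean of Ifitm3 rests on replicate 3 (1087 CPM against 444 and 292 CPM). Isg15 came next in both, at 215 and 40.6 CPM per kb, but its place in siAATF rests on replicate 3, which held 67.1 CPM against 8.27 and 10.3 CPM in the other 2. Below them the order changed. Stat2 went from place 22 to place 4 (17.5 and 33.6 CPM per kb), Ifi35 from 15 to 5 (with the overlap given above), Irf7 from 4 to 6 and Ifit3 from 5 to 18 (76.0 and 5.87 CPM per kb). Gbp5 was lowest in siControl, at 4.65 CPM per kb.

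The rest of the interferon pathway was read from lists of other genes. Of 11 interferon genes none reached 10 counts: Ifnb1 had 1 count in all, Ifng 3 and Ifnk 9, and the other 8 were at 0 in every library, which allows up to 7.24 CPM in the shallowest siControl library. The counts that follow are with TMM, where 14.4% of all genes were lower and 17.6% higher. Of 5 receptor genes tested 3 were lower, the interferon-gamma receptor chains Ifngr1 (-2.20 ± 0.44, adjusted p = 0.00223) and Ifngr2 (-1.56) and the type I chain Ifnar2 (-1.32), with a median of -1.56 for the list. Among 11 signalling genes 4 were lower, led by Irf8, a factor of the myeloid lineage (-3.42), Socs1, a feedback inhibitor of JAK kinases (-3.16), and Irf5 (-2.26), and 1, Irf3, was higher (1.48 ± 0.40, adjusted p = 0.0131). Of 12 genes that sense nucleic acid 6 were lower, led by the endosomal receptors Tlr9 and Tlr7 (-4.42) and the adaptor Sting1 (-4.32). Tlr9 was at 4.81, 2.41 and 3.90 CPM in siControl and had 1 count in all in siAATF, so that its fitted log2 fold change of -6.85 depends on the prior count and bounds nothing. With human and mouse counts together, where 87.2% of all genes were higher and 0.660% lower, the direction turned: 4 receptor genes, 9 signalling genes and 7 sensing genes were higher, 0, 0 and 1 were lower, and the medians were 2.75, 3.22 and 2.96, beside 4.66 for all genes.

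Genes induced by interferon but outside the 37 were mostly lower with TMM and not with human and mouse counts together. Of 29 other antiviral genes tested 17 were lower with TMM, beside 14.4% of all genes, and 1, Ifi27, was higher (1.26, beside 17.6% of all genes), with a median of -2.34. Ifi204, a DNA-binding protein of the HIN-200 family, fell most (-5.05 ± 0.44, adjusted p = 2.27e-05), followed by Tor3a (-4.16) and Phf11d (-3.96). Of 15 other interferon-gamma targets tested 9 were lower, with a median of -2.48. They were led by Nos2, the inducible nitric oxide synthase of activated macrophages, at 40.9, 45.8 and 60.2 CPM in siControl and 0, 0.201 and 0.166 CPM in siAATF. The siAATF values are 0, 1 and 3 counts, so that its fitted log2 fold change of -8.99 depends on the prior count. The chemokine Cxcl10 (-4.91) and Gbp2b (-4.32) came next. Another GBP, Gbp11, was higher, at 6.42, 2.41 and 6.13 CPM in siControl and 47.5, 22.2 and 31.5 CPM in siAATF (2.60 ± 0.47, adjusted p = 0.00118). With human and mouse counts together, 18 of the other antiviral genes were higher and 0 lower (median 1.90), and 5 of the other interferon-gamma targets were higher and 1 lower (median 1.55), beside 87.2% and 0.660% of all genes.

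**Figure D4:**
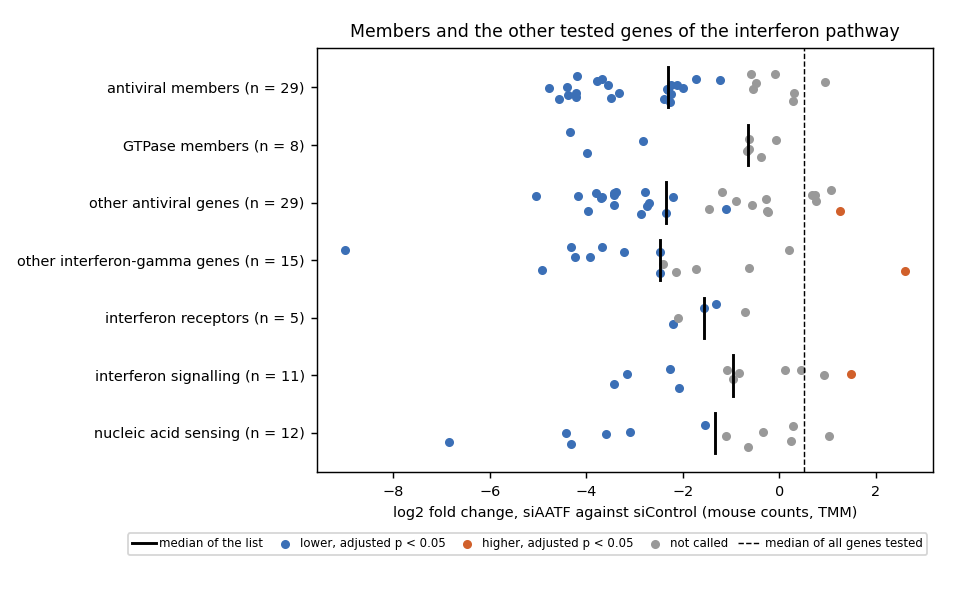
Log2 fold change, siAATF against siControl on the TMM scale (x axis), of every tested gene (points) of the 2 classes of the 37 genes and of 5 lists of other interferon pathway genes (y axis), with the number tested. Blue points are lower and orange points higher at an adjusted p under 0.05, the bar is the list's median, and the dashed line is the median of all genes (0.50). The median of each list lies left of the dashed line, from -2.48 for the other interferon-gamma genes to -0.65 for the GTPases.

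Markers of the cell types that a liver sample can hold moved with the groups too. The counts and sums are with TMM, where 14.4% of all genes were lower and 17.6% higher. All 12 hepatocyte markers were higher, and their sum went from 4191 to 10830 CPM in siControl to between 57635 and 149499 CPM in siAATF. Of 10 fibroblast markers 9 were lower, with sums of 8736 to 12825 CPM and 346 to 541 CPM. Of 12 macrophage and Kupffer cell markers 7 were lower, with sums of 1421 to 4667 CPM and 183 to 300 CPM. The 7 included Adgre1, Cd68 and Csf1r, while Clec4f, Vsig4, Timd4, Marco and Cd5l, which mark resident Kupffer cells, were not called. Of 8 neutrophil markers 5 were lower (92.2 to 1899 CPM and 2.42 to 138 CPM), of 6 tested plasmacytoid dendritic cell markers 4 (219 to 309 CPM and 59.2 to 287 CPM), and of 8 tested lymphocyte and NK cell markers 4 (16.8 to 36.8 CPM and 5.93 to 13.1 CPM). Of 10 endothelial markers 5 were lower and 1 higher, with sums of 618 to 801 CPM and 139 to 336 CPM. With human and mouse counts together, where 87.2% of all genes were higher, the hepatocyte markers were again all higher, 3 fibroblast markers were lower and 1 higher, and no marker of the other lists was lower. Of those, 5 macrophage and Kupffer cell, 0 neutrophil, 3 plasmacytoid dendritic cell, 4 lymphocyte and NK cell and 7 endothelial markers were higher. Cd3e, a defining T cell marker, had 2 counts in siControl replicate 3 and was at 0 in the other 5 libraries, and no tested marker was at 0 in every library of a group. The mouse RNA of the 2 groups thus differed in the shares of these markers. Cell numbers and RNA per cell cannot be told apart in bulk RNA, and the part of these markers in the fall of the interferon-stimulated genes was not tested.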

How the data were processed

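RNA from tissue that the labels give as liver was sequenced as paired reads from SMART-Seq libraries. The authors trimmed the reads, aligned them to the joined human and mouse genomes (per the labels, GRCm39 for mouse, with STAR 2.7.11), kept those placed once and in a single species, and used featureCounts 2.0.1 to count them on genes. The deposited values are raw gene counts without normalization, in a human and a mouse table, and the gene length column deposited beside them gave the levels per kb. Of 56884 mouse genes 56323 were named from gencode release 39. The human table was used for library totals alone, after 1 gene broken over several lines was left out.

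The 37 genes and the other lists were chosen with earlier results of these data known. Mouse genes with at least 10 counts in total (18018) were tested with edgeR 4.0.16 (R 4.3.3), TMM and group as the only term, with Benjamini-Hochberg adjustment over all of them and a call at an adjusted p under 0.05. Among the 37, per-library values are given for any gene called higher, for genes not called whose groups did not overlap and for the 2 genes of each role with the highest mean CPM. Of each pathway list up to 3 called genes with the largest change are named. Other genes were named after their values were seen. The same code was tested on simulated counts. As the test returns no SE, that of a log2 fold change is its size divided by the square root of the F statistic. The alternatives were DESeq2 1.42.0, limma-voom (limma 3.58.1), other scalings and filters, thinning to 213022 mouse counts, the replicate number as a block and leaving out each replicate. Groups came from the sample titles. Promoter windows are from RefSeq, and the plots were drawn with matplotlib 3.10.9 in Python 3.11.15.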

Additional observations from a re-analysis of the deposited data

How the results depend on the processing

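Of the 37 genes, 25 remained lower under RLE and upper-quartile normalization, filterByExpr, no filter, limma-voom and DESeq2, and 18 of the 28 tested when 10 counts were required in each library. The replicate numbers were not taken to pair the libraries: the correlations of same-numbered deviations were 0.118, 0.147 and -0.04 over 11623 genes. Of the siControl libraries, only replicate 2 was most like the siAATF library of its own number. The replicate block gave 25 lower and 0 higher, and changed no call. Leaving out each replicate in turn gave 22 to 25 lower and 0 to 1 higher, medians of -2.67 to -1.95 (all 37), -2.84 to -1.96 (antiviral) and -1.05 to -0.57 (GTPases), and values on both sides of 0 for Ifih1 (-0.60 to 0.28), Igtp (-0.39 to 0.20), Ifitm3 (-0.36 to 0.68) and Ifi35 (-0.086 to 0.60).

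Scaling moved the values most, and the medians of all genes moved from 0.50 to -1.30 by mouse library size, -0.76 without mitochondrial genes, -0.28 after thinning and 4.66 with human and mouse counts together. By mouse library size alone the medians were -4.12 (all 37), -4.12 (antiviral) and -2.53 (GTPases), and without mitochondrial genes -3.61, -3.66 and -2.0, with 35 lower in both. Stat2 (-0.96 and -0.34), Ifitm3 (-1.50 and -1.11) and Ifi35 (-1.56 and -1.06) turned negative there. Thinning, which left few siAATF counts per gene, gave 28 lower (18.4% of the 9684 genes tested), with Mx2, Irf9, Irgm1 and Gbp7 gained and Dhx58 lost, and medians of -3.05, -3.36 and -1.38, with Ifitm3 at -0.30 and Ifi35 at -0.60. Upper-quartile normalization put Ifitm3 at -0.032 and Ifi35 at -0.0019, and no filter put Ifih1 at 0.0056 and Igtp at 0.027.

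With human and mouse counts together 0 were lower and 22 higher, and the medians were 1.94, 1.91 and 3.58. The fold changes that turned were those of Ifit1 (2.13), Ifit3 (0.62), Isg15 (1.87), Usp18 (1.78), Oas1a (0.46), Oas2 (0.80), Oas3 (0.0072), Oasl1 (1.96), Mx2 (3.67), Ifih1 (4.03), Dhx58 (3.00), Zbp1 (1.95), Irf7 (1.91), Irf9 (3.76), Bst2 (3.72), Rsad2 (0.98), Rtp4 (1.94), Cmpk2 (0.67), Ifi44 (0.061), Xaf1 (2.16), Parp14 (2.56), Trim30a (0.062), Igtp (4.13), Irgm1 (3.65), Irgm2 (3.89), Ifi47 (3.63), Gbp3 (1.32), Gbp5 (0.14) and Gbp7 (3.53). These shifts follow from the human share of the counts by construction. Depth limits siControl: 1 count was worth 2.41 CPM in replicate 2, against 0.0345 CPM in siAATF replicate 1.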
